A study of Sorghum bicolor with 12 samples.

Results

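The transcripts described here were those whose level was far above control in drought and in combined drought and heat stress, while heat alone left them near control. A transcript belonged to the group when its ratio, the deposited normalized log2 value of a treated array minus that of the control with its replicate number, was above 3-fold in all 3 drought and all 3 combined stress replicates, when its mean ratio in heat stayed within 1.5-fold of control in either direction, and when it was detected on the 6 drought and combined stress arrays. A transcript is called detected on an array where the scanner software marked all spots for it as well above background, and a transcript that is not detected there is not well above background. Of the 28785 probes on the array, 83 passed. Leaving out 3 that were set aside by name, 1 transcript of OST1 and 2 of LEA proteins, gave 80 members from 78 genes. These values chose the members, so the ratios of each treatment to control describe the group and were not used as tests of it.

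Leaves that lose water accumulate the hormone abscisic acid (ABA). ABA binds receptors that then block clade A protein phosphatases 2C (PP2Cs), which frees kinases of the SnRK2 family to activate transcription factors, and the genes switched on in this way encode, among others, late embryogenesis abundant (LEA) proteins and dehydrins, small hydrophilic proteins that protect other proteins and membranes as cells dry. The PP2C genes are themselves raised by ABA and act as a brake on the pathway. Heat, in contrast, acts mainly through heat shock factors and chaperones.

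The arrays held leaf RNA of Sorghum bicolor variety R16 seedlings, with 3 arrays for each of 4 groups. Control plants were watered and kept at 28°C, drought plants received no water for about 3 days and were kept at 28°C, heat plants were watered and exposed to 50°C, and combined stress plants received no water for about 3 days and were then exposed to 50°C. The incubation at 28°C or 50°C lasted 3 h, was given in the dark and applied to all 4 groups, water was withdrawn at 14 days after sowing, and tissue of the youngest 3 leaves was pooled within a treatment set, with 6 plants in each treatment. Per the study's methods the experiment was carried out 3 times, which gave the replicates, described there as biological. Arrays of 1 replicate number shared a slide. In RNA from whole leaves, a change in the number of cells that hold a transcript cannot be told apart from a change in the amount per cell.

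Levels are given as log2 signal relative to the 75th percentile of the array, so that 0 is the level exceeded by 1 spot in 4, and are compared only within a transcript. Over the 12 arrays, 75 to 84.4% of spots exceeded background clearly and no spot was saturated, and the median signal was 222 to 298 on the combined stress arrays and 365 to 542 on the others. The leaf transcript RBCS1A (Sb05g003480.1, Rubisco small subunit) was detected on every array, with a mean level of 4.33 in control, 3.26 in heat, 2.36 in drought and 2.55 in combined stress. The chaperone transcript ATHSP101 (Sb03g034390.1) was at -7.05, 4.41, -6.27 and 6.53 in the same order. The seed oil body protein OLEO1 (Sb01g050670.1) and the storage protein PAP85 (Sb01g012640.1) were detected on none of the 3 control arrays and on all 3 drought arrays, with means of 0.24 and 0.19 in drought and -0.77 and -1.32 in combined stress. These were the 2 seed markers examined, and both were detected on 2 of the 3 heat arrays. The 2 leaf markers examined, RBCS1A and LHCB6 (Sb06g032690.1, mean 2.04 in control and 0.10 in drought), were lower where the members were higher. Not all leaf transcripts went this way. Of 6 annotated for leaf photosynthesis, limma called 1 higher and 0 lower in drought, and 3 higher and 2 lower in combined stress. The median log2 difference of the 6 from control was -0.95 in drought and 0.44 in combined stress. The part of leaf and seed transcripts in the results was not tested.

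Over the 80 members, the mean log2 ratio to control ranged from 1.70 to 9.53 in drought (median 3.82) and from 1.82 to 9.58 in combined stress (median 3.21). Some 53 members were past 3 on this scale in drought and 47 in combined stress. In heat the mean ratios ran from -0.54 to 0.56. The limma fit over all 12 arrays called 74 members higher in drought, where 4.32% of the 22546 transcripts tested were called, and 80 higher in combined stress, where 22.6% were called, or 51 without replicate 1, against 8.97% of all. In heat it called none of them, against 18.4% of all transcripts higher and 20.5% lower. With normexp background correction, 3 members were called higher in heat, against 26.2% of all, and the median difference of heat from control rose from 0.12 to 1.08 over the members and from -0.09 to 0.33 over all transcripts. The rule used these contrasts, so the counts describe it. The drought count fell to 13 without replicate 1 and to 35 without replicate 3, against 0.293% and 0.954% of all. The members were dim without drought: 49 of 80 (61.3%) were detected on all 12 arrays, compared with 85.3% of the transcripts tested, and 24 were missed on at least 1 control array. For those 24, changes are given as at least N-fold. This bound sets the mean of the treated arrays against a mean over the control arrays. On each control array the lowest level of a spot well above background was used, or the transcript's own level where that was higher. Where its own level was the higher on all 3, as for TT7 (Sb07g003720.1), the value equals the plain ratio. A bound on means does not hold for each replicate.

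**Figure D1:**
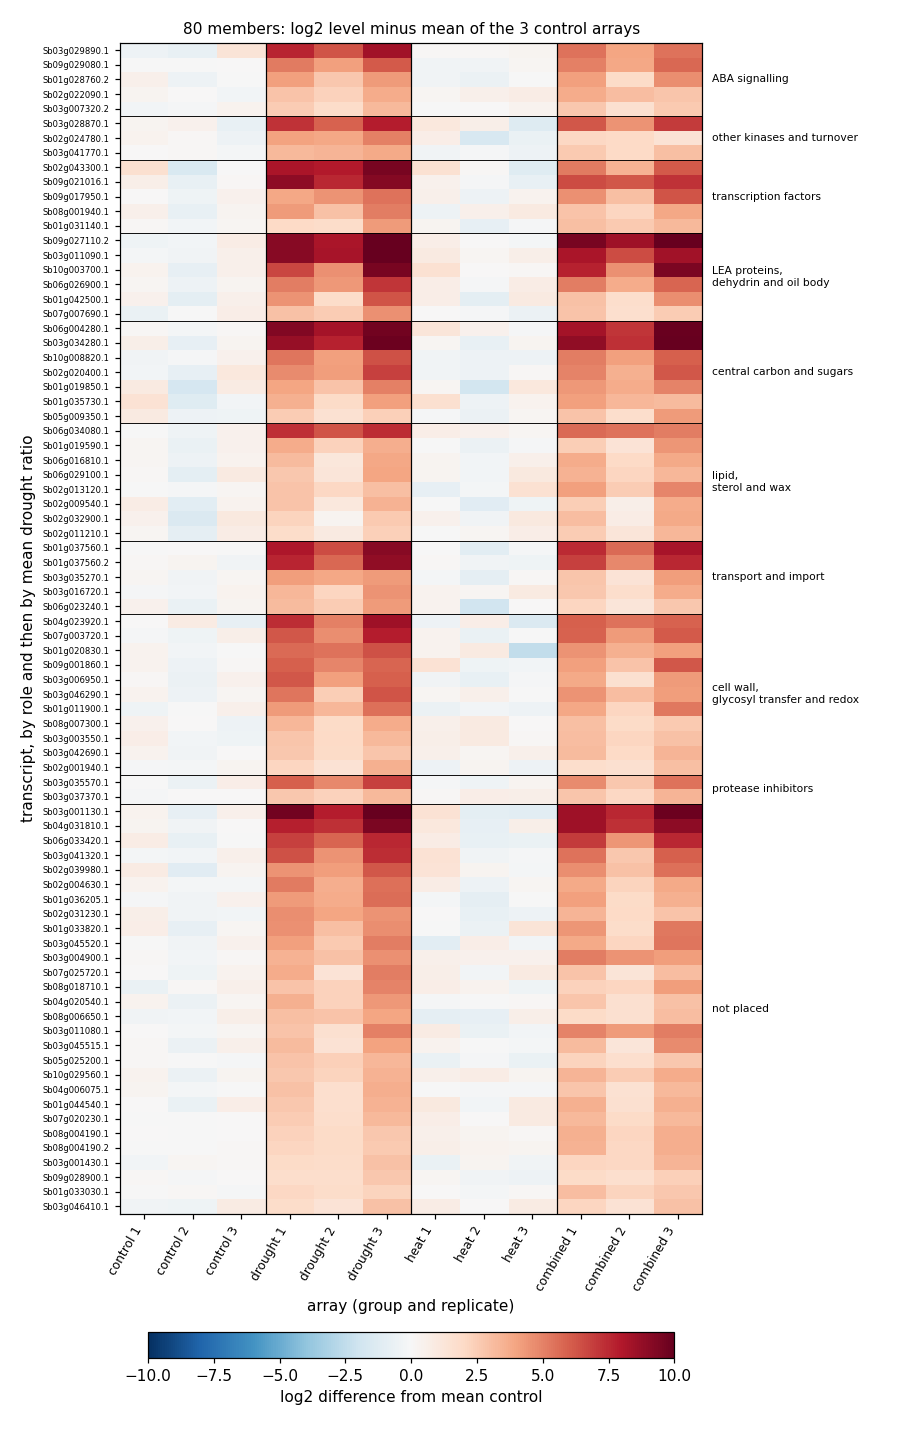
Level of each of the 80 members (rows, grouped by role) on each of the 12 arrays (columns), as the log2 difference from the mean of the 3 control arrays. The drought and combined stress columns are red for nearly every member, the heat columns are pale, and replicate 2 is the palest of the 3 replicates in both for most rows.

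Among the members, 5 were placed with ABA synthesis or signalling, 3 by their own annotation and 2 as second transcripts of annotated genes. Of the 5, 2 were annotated as PP2CA, a clade A phosphatase that holds SnRK2 kinases inactive. The first, Sb03g029890.1, was detected on no control and no heat array. Its level was -8.97, -9.18 and -7.14 on the control arrays 1 to 3, -8.34, -8.28 and -8.15 on the heat arrays, -0.82, -2.13 and -0.01 on the drought arrays and -3.0, -4.45 and -3.01 on the combined stress arrays. All 3 combined stress arrays lay below all 3 drought arrays, as in 10% of the members and 18.9% of all transcripts. They also lay above every control array, though the rule already asked for this within each replicate. The transcript was at least 67.6-fold above control in drought and at least 11.9-fold in combined stress. Its level in combined stress differed from that in drought by -2.50 (SE 0.63, limma adjusted p = 0.0132) on the log2 scale. The second, Sb09g029080.1, was measured on every array, with ratios to control of 5.18, 4.17 and 6.04 in drought, -0.34, -0.31 and 0.10 in heat and 5.10, 3.91 and 5.67 in combined stress. It was thus 35.1-fold above control in drought and 29.7-fold in combined stress, and the difference between them was -0.24 (SE 0.52, limma adjusted p = 0.762). Whether the 2 PP2CA transcripts differ from each other in this respect was not tested. A further PP2C, Sb02g022090.1, with no clade given, had ratios of 2.62, 2.30 and 4.01 in drought and 3.46, 3.04 and 3.02 in combined stress, with a mean of 2.97 ± 0.91 and 3.17 ± 0.25 (SD, n = 3). Its combined stress values were the more even ones.

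Another 2 members carried no annotation of their own but were second transcripts of annotated ABA genes. Sb01g028760.2 is a transcript of the gene whose other transcript is annotated as OST1, the SnRK2 kinase that closes stomata in Arabidopsis. Its ratios were 3.56, 3.22 and 4.30 in drought, -0.88, -0.07 and -0.04 in heat and 3.59, 2.41 and 4.68 in combined stress, and the means of the other transcript, left out by the rule, were 3.68, -0.24 and 3.65. The pair was lowest in replicate 2 of both drought and combined stress. Sb03g007320.2 belongs to the gene annotated as ABA4, which is needed for making ABA precursors in Arabidopsis. It had ratios of 2.83, 1.90 and 2.84 in drought and 2.97, 1.66 and 2.27 in combined stress. The first transcript of that gene, with 2.78, 1.84 and 2.79 in drought, was no member because its ratio in replicate 2 of combined stress was 1.38. Across the wider pathway, 29 transcripts with an annotation for ABA synthesis, breakdown or signalling were identified, 3 of them members. limma called 22 of the 29 higher in drought, 24 higher and 3 lower in combined stress, and in heat 15 higher and 4 lower. These lists hold only transcripts that the study listed as changed on these arrays, so their direction is not independent evidence.

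A further 3 members acted elsewhere in signalling or protein turnover. KING1 (Sb03g028870.1) is annotated as the regulatory gamma subunit of SNF1-related kinase, an energy sensor. It was detected on 2 of 3 control arrays, and stood at least 92-fold above control in drought and 42.4-fold in combined stress. SIP3 (Sb02g024780.1), a kinase that binds SOS3-type calcium sensors, had ratios of 3.66, 3.72 and 5.58 in drought but 1.66, 1.84 and 1.96 in combined stress, the lowest mean among the members in that group (1.82 ± 0.15, SD, n = 3). The 2 sets of levels, -1.20, -1.38 and -0.18 in drought and -3.20, -3.25 and -3.80 in combined stress, lay apart, and the difference was -2.50 (SE 0.53, limma adjusted p = 0.00532). In heat its ratios were 0.31, -1.76 and -0.17, and it was detected on 2 of the 3 heat arrays. SKP2A (Sb03g041770.1), an F-box protein that marks cell cycle regulators for breakdown in Arabidopsis, had ratios of 3.18, 3.22 and 3.98 in drought and 2.54, 1.87 and 3.25 in combined stress, a difference of -0.91 (SE 0.27, limma adjusted p = 0.0275). This was the narrowest of the differences called.

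Among the members, 5 encoded transcription factors. HB-3 (Sb02g043300.1), of the homeodomain-leucine zipper family, was detected on 1 of 3 control and 1 of 3 heat arrays. Its level was -5.83, -8.90 and -7.47 in control, -5.90, -7.30 and -8.58 in heat, 0.79, 0.55 and 2.11 in drought and -2.23, -3.93 and -1.26 in combined stress, so that every combined stress array lay below every drought array. It was at least 201-fold above control in drought and 16.3-fold in combined stress, and the difference between the 2, -3.62 (SE 0.92, limma adjusted p = 0.0133), was the most negative of the group. An AP2 domain factor (Sb09g021016.1) had levels of 1.89, 0.42 and 2.06 in drought and -0.58, -0.90 and 0.14 in combined stress, again with no overlap. Like HB-3 it was measured on 1 of 3 control arrays, and was at least 289-fold above control in drought and 77-fold in combined stress, a difference of -1.91 (SE 0.50, limma adjusted p = 0.0159). For the other three no difference between combined stress and drought was called. ATEBP (Sb09g017950.1), an ethylene response factor, had levels of -2.51, -1.89 and -0.97 in drought and -1.82, -3.36 and -0.06 in combined stress, and was at least 23.9-fold and 24.6-fold above control. The NAC domain factor anac025 (Sb08g001940.1) had ratios of 3.75, 3.72 and 4.85 and 2.37, 2.90 and 3.60. HRD (Sb01g031140.1), an AP2/ERF factor that improves drought tolerance when overexpressed in Arabidopsis, was at least 6.49-fold above control in drought and 7.83-fold in combined stress, and its 3 levels in combined stress, -3.30, -3.68 and -3.07, spread less than those in drought, -4.31, -4.51 and -2.05. Of 121 annotated transcription factors tested, 44 were called higher and 2 lower in drought, 71 and 18 in heat, and 84 and 15 in combined stress.

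The LEA proteins, a dehydrin and an oil body protein made up 6 members and included the highest ratio of all. Sb09g027110.2, a transcript of a gene annotated as LEA protein, had ratios of 9.57, 8.49 and 10.54 in drought and 9.95, 8.81 and 9.98 in combined stress. In heat they were 1.12, 0.32 and -0.97, on both sides of 0. It was 740-fold above control in drought and 765-fold in combined stress, and the difference of 0.05 (SE 0.75, limma adjusted p = 0.971) carried a wide error. ATECP63 (Sb03g011090.1), an embryonic cell protein of the LEA family, had ratios of 9.32, 8.56 and 9.46 in drought, 1.09, 0.51 and 0.07 in heat and 8.31, 6.87 and 7.88 in combined stress. It was lower in combined stress on all 3 slides, with a difference of -1.43 (SE 0.53, limma adjusted p = 0.0646). The limma adjusted p was 0.00786 in the fit with the slide as a block, which called 19.4% of all transcripts lower. With the position on the slide as a factor the difference was -0.68 (limma adjusted p = 0.739). The dehydrin XERO1 (Sb10g003700.1) had the largest spread of the members between replicates in both stresses. It was detected on no control or heat array, its levels were -1.69, -3.80 and 1.13 in drought and -0.70, -3.85 and 1.01 in combined stress, and it was at least 49-fold and 59.2-fold above control. The spread within either group exceeded the difference between them, 0.27 (SE 1.29, limma adjusted p = 0.896).

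Both LEA group 1 transcripts were measured in every group. Sb06g026900.1 had ratios of 4.88, 4.81 and 6.85 in drought and 4.91, 4.19 and 5.55 in combined stress, and Sb07g007690.1 had 3.57, 2.61 and 3.94 and 3.46, 1.71 and 1.87. RD20 (Sb01g042500.1), a caleosin that binds calcium at oil bodies and is raised by ABA in Arabidopsis, was measured on 2 of 3 control arrays and was at least 17.2-fold above control in drought and 8.02-fold in combined stress. None of these 3 was called between combined stress and drought. Of 27 annotated LEA proteins and dehydrins, limma called 20 higher in drought, 12 in heat and 26 when both were combined, none lower, and 4 of the 27 were members. Of 13 annotated seed and oil body proteins, with RD20 as the 1 member, 5 were called higher in drought, 4 in heat and 10 when both were combined, and 1 lower in each.

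Enzymes of central carbon and sugar metabolism accounted for 7 members, and for none of them was a difference between combined stress and drought called. A transketolase (Sb06g004280.1), which moves carbon units between sugar phosphates, was detected on no control or heat array and reached 0.36, -0.58 and 0.78 in drought and -0.61, -1.73 and 1.0 in combined stress, at least 152-fold and 98.5-fold above control. ATNADP-ME1 (Sb03g034280.1), which converts malate to pyruvate, was measured on 1 of 3 control arrays and was at least 364-fold above control in drought and 397-fold in combined stress, the largest bounds of the group. Its levels of 1.87, 0.82 and 2.97 and 2.0, 0.46 and 3.58 followed the same order of replicates. The alpha subunit of pyrophosphate-dependent phosphofructokinase (Sb02g020400.1) was likewise not detected on any control or heat array, and was at least 19.3-fold above control in drought and 15.3-fold in combined stress. IAR4 (Sb10g008820.1), annotated as an oxidoreductase of the pyruvate dehydrogenase type in Arabidopsis, was 38.4-fold and 33.6-fold above control.

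BAM1 (Sb01g019850.1), a beta-amylase that releases maltose from starch, had ratios of 3.1, 4.51 and 4.29 in drought, -0.68, -0.20 and 0.28 in heat and 3.44, 5.35 and 4.14 in combined stress, and a difference of 0.34 (SE 0.87, limma adjusted p = 0.796). AUD1 (Sb01g035730.1), which makes the cell wall precursor UDP-xylose, was measured on 1 of 3 control arrays and was at least 5.43-fold and 6.85-fold above control. Alcohol dehydrogenase ADH1 (Sb05g009350.1) lay closest to the limit of the rule. Its combined stress ratios of 1.90, 2.23 and 4.66 spanned a wide range, and those in drought were 1.60, 1.99 and 2.78. Among 20 annotated transcripts for osmolytes and sugars, 2 of them members, 13 were called higher in drought, 13 in heat, with 1 lower, and 19 in the combination, with 1 lower.

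Lipid, sterol and wax genes supplied 8 members, which went both ways between drought and combined stress. A phosphatidylinositol-4-phosphate 5-kinase (Sb06g034080.1), which makes the membrane lipid that phospholipase C cleaves, was not detected on any control or heat array, and had levels of -1.44, -2.48 and -1.36 in drought and -3.15, -3.38 and -3.65 in combined stress. It was at least 39.6-fold and 12.7-fold above control, and the difference between the 2 stresses was -1.63 (SE 0.32, limma adjusted p = 0.00383). The phospholipase C member (Sb06g016810.1) had ratios of 3.03, 1.67 and 3.54 in drought and 3.55, 2.49 and 3.47 in combined stress, higher in combined stress on 2 of 3 slides. CER1 (Sb01g019590.1), of the pathway that makes wax alkanes, was 9.34-fold above control in drought and 6.76-fold in combined stress. FATB (Sb02g009540.1), a thioesterase that ends the synthesis of saturated fatty acids in the plastid, was 5.54-fold and 4.77-fold above.

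CAS1 (Sb02g013120.1), cycloartenol synthase, the first enzyme of plant sterol synthesis, was higher in combined stress than in drought on all 3 slides. Its ratios were 2.94, 2.15 and 2.79 in drought and 4.20, 2.66 and 4.71 in combined stress, and the difference was 1.23 (SE 0.64, limma adjusted p = 0.173). In heat they were -0.73, -0.04 and 1.37, so that the mean in the band of the rule came from values on both sides of it. ATS2 (Sb06g029100.1), an acyltransferase of phosphatidic acid synthesis, had ratios of 2.60, 2.24 and 3.08 and 3.35, 3.18 and 2.46. Of its 2 spots, 1 was flagged as an outlier on 2 heat arrays and was left out there, which put its mean heat ratio at 0.33, compared with 1.32 with those spots. Both dehydrodolichyl diphosphate synthases (Sb02g032900.1 and Sb02g011210.1), which make the lipid carrier of protein glycosylation, had nearly the same ratios. These were 1.75, 1.72 and 1.66 and 1.69, 1.78 and 1.63 in drought, and 2.61, 2.19 and 2.81 and 2.38, 2.10 and 2.56 in combined stress. Whether each probe detects only its own transcript was not tested. Of 32 annotated transcripts for wax, sterols and membrane lipids, 6 of them members, 11 were called higher and 4 lower in drought, 8 and 12 in heat, and 16 and 10 in combined stress.

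All 5 members for transport and protein import had a lower mean in combined stress than in drought, as did 51 of all 80 members. limma called none of the 5. Both transcripts of a gene annotated as a Tim17/Tim22/Tim23 family subunit of the mitochondrial import translocase (Sb01g037560.1 and Sb01g037560.2) were among the 5, and are not independent. The first was measured on every array, with ratios of 8.11, 6.53 and 9.13 in drought, -0.04, -1.09 and -0.09 in heat and 7.49, 5.67 and 8.25 in combined stress. The second was detected on no control or heat array and was at least 93.4-fold and 46-fold above control. They peaked in replicate 3 and were lowest in replicate 2 of both stresses. A proton-dependent oligopeptide transporter (Sb03g035270.1) had even ratios of 4.04, 4.18 and 4.08 in drought and uneven ones of 2.62, 1.68 and 3.98 in combined stress. The difference was -1.34 (SE 0.56, limma adjusted p = 0.0946). The limma adjusted p was 0.026 with the slide as a block, where 19.4% of all transcripts were called lower. With the position on the slide as a factor the transporter was not called. BETA-TIP (Sb06g023240.1), a water channel of the vacuole membrane, was measured on 2 of 3 control arrays and was at least 9.97-fold and 4.07-fold above control. A heavy-metal-associated domain protein (Sb03g016720.1) had ratios of 3.42, 2.44 and 4.14 and 2.78, 2.01 and 3.33. Of 144 annotated transport transcripts, 2 of them members, 41 were called higher and 3 lower in drought, 60 and 60 in heat, and 71 and 56 in combined stress.

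Cell wall, glycosyl transfer and redox enzymes formed the largest named set, with 11 members. Of these, 9 had a lower mean in combined stress, compared with 51 of all 80 members. The 1 of the 11 that limma called was RXF12 (Sb03g006950.1), a xylanase that cuts the wall polymer xylan. Its levels were 1.590, -0.58 and 1.34 in drought and -0.83, -3.06 and -0.36 in combined stress, with a difference of -2.20 (SE 0.70, limma adjusted p = 0.0363), and the lowest drought array lay between the combined stress arrays, so that the 2 groups overlapped. On each slide the combined stress array was the lower one. The glucosyltransferase AtUGT85A2 (Sb04g023920.1) showed the widest spread of ratios in drought, with values of 7.33, 4.21 and 9.28, and 5.98, 4.64 and 6.75 in combined stress. TT7 (Sb07g003720.1), the flavonoid 3'-hydroxylase, was measured on 2 of 3 control arrays and was at least 75.4-fold and 43.1-fold above control.

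A peroxidase (Sb01g020830.1) had ratios of 5.32, 5.71 and 6.44 in drought and 4.19, 3.82 and 4.21 in combined stress, which do not overlap, and a difference of -1.75 (SE 0.70, limma adjusted p = 0.0812). In heat its ratios of -0.01, 1.14 and -2.39 were the most uneven of the group. The remaining 7, a disease resistance-responsive protein (Sb09g001860.1), a glycosyl transferase (Sb03g046290.1), the sulfotransferase SOT18 (Sb01g011900.1), the glutathione transferase ATGSTF13 (Sb08g007300.1), a 2-oxoglutarate-dependent dioxygenase (Sb03g003550.1), the beta-glucosidase BGLU42 (Sb03g042690.1) and a glycine-rich protein (Sb02g001940.1), had mean ratios from 2.38 to 5.56 in drought and from 2.13 to 4.40 in combined stress. The protease inhibitors were 2 members. A serpin (Sb03g035570.1) had ratios of 5.98, 5.37 and 6.19 in drought and 4.78, 3.31 and 4.83 in combined stress, and a cystatin (Sb03g037370.1), which blocks cysteine proteases, had 2.77, 2.23 and 3.20 and 2.91, 1.99 and 3.34. The serpin was lower in combined stress on every slide, with a difference of -1.54 (SE 0.68, limma adjusted p = 0.111). Its limma adjusted p was 0.00837 with the slide as a block, where 19.4% of all transcripts were called lower. With the position on the slide as a factor its difference was -1.11 (limma adjusted p = 0.67).

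The other 28 members had no annotation or were given an annotation that was not placed in a role. Over the whole group, 12 were annotated as unknown protein and 15 carried no annotation. The highest drought ratio among the 28 was that of an AAA-type ATPase (Sb03g001130.1), detected on no control array and on 1 of 3 heat arrays, with levels of 1.68, -0.16 and 2.43 in drought and 0.51, -0.46 and 1.80 in combined stress, at least 333-fold and 205-fold above control. The unknown protein Sb04g031810.1 was 288-fold and 300-fold above control. Sb02g031230.1 was the eighth member called lower in combined stress, with levels of -1.13, -1.85 and -1.28 in drought and -2.40, -3.81 and -2.90 in combined stress and a difference of -1.62 (SE 0.39, limma adjusted p = 0.0111). The 2 transcripts of gene Sb08g004190 had nearly the same ratios, with ratios of 2.28, 1.99 and 2.64 for the first and 2.23, 1.99 and 2.53 for the second in drought, and 3.54, 2.24 and 3.58 and 3.54, 2.15 and 3.50 in combined stress.

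Of the unplaced members, 11 were lower in combined stress than in drought on every slide, and the 4 described next were among those called lower only with the slide as a block. Sb08g006650.1 had ratios of 3.38, 3.13 and 3.35 in drought and 2.29, 1.84 and 2.46 in combined stress. The unknown protein Sb02g004630.1 was at least 27.5-fold above control in drought and 9.56-fold in combined stress, with levels of -1.02, -2.61 and -0.78 and -2.50, -4.04 and -2.45. Its replicates kept the same order in both. A further 2 unknown proteins, Sb01g036205.1 and Sb04g020540.1, had ratios of 4.32, 4.06 and 5.14 and 3.15, 2.87 and 4.09 in drought. In combined stress these were 4.23, 2.24 and 3.11 and 2.37, 2.17 and 2.73. The 12 unplaced members not named here or elsewhere had mean ratios from 2.02 to 4.93 in drought and from 2.0 to 4.35 in combined stress.

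A pair of members lay next to each other by identifier in 4 places, which were the 2 genes with 2 transcripts each, ATECP63 with Sb03g011080.1, and RECA3 (Sb03g045520.1, a DNA repair protein of organelles) with Sb03g045515.1. The latter pair had mean ratios of 3.94 and 2.88 in drought and 3.77 and 3.02 in combined stress. By their identifiers, 22 of the 80 members (27.5%) lay on chromosome 3, which held 15.6% of the 2965 transcripts that could be identified, followed by 14 on chromosome 1 and 12 on chromosome 2. Transcripts of 1 gene or of neighbouring genes are not independent, and no test was made of this count.

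The comparison of combined stress with drought shows whether adding heat altered the level that drought had set. The rule placed the same limit on both treatments and set no direction for this difference. It did limit how far a member could fall, because the combined stress ratio had to stay above 3-fold in each replicate. A member near the limit in drought thus had little room to be lower. The shares of members called lower are therefore not directly comparable with those over all transcripts. limma called 8 of 80 members (10%) lower in combined stress and none higher at an adjusted p under 0.05, while over all transcripts tested 14.9% were called lower and 14.8% higher. The share called lower was below that background in this fit, and in other fits it lay on either side of it. At an unadjusted p under 0.05, 15 members (18.8%) were lower and 5 higher (6.25%), against 21.4% and 20.1% of all transcripts. On all 3 slides combined stress was lower than drought in 33 members (41.2%) and higher in 13 (16.2%), compared with 32.6% and 30.5% of all transcripts. The 8 were HB-3, PP2CA (Sb03g029890.1), SIP3, RXF12, the AP2 domain factor, the phosphatidylinositol-4-phosphate 5-kinase, Sb02g031230.1 and SKP2A, with log2 differences from -3.62 to -0.91. Each was lower on all 3 slides, and still above control in combined stress as the rule required. In all, 8 members (10%), 7 of those called and the peroxidase, had all 3 combined stress arrays below all 3 drought arrays and 1, a senescence-associated protein (Sb01g033030.1), had them above, compared with 18.9% and 18.3% of all transcripts.

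**Figure D2:**
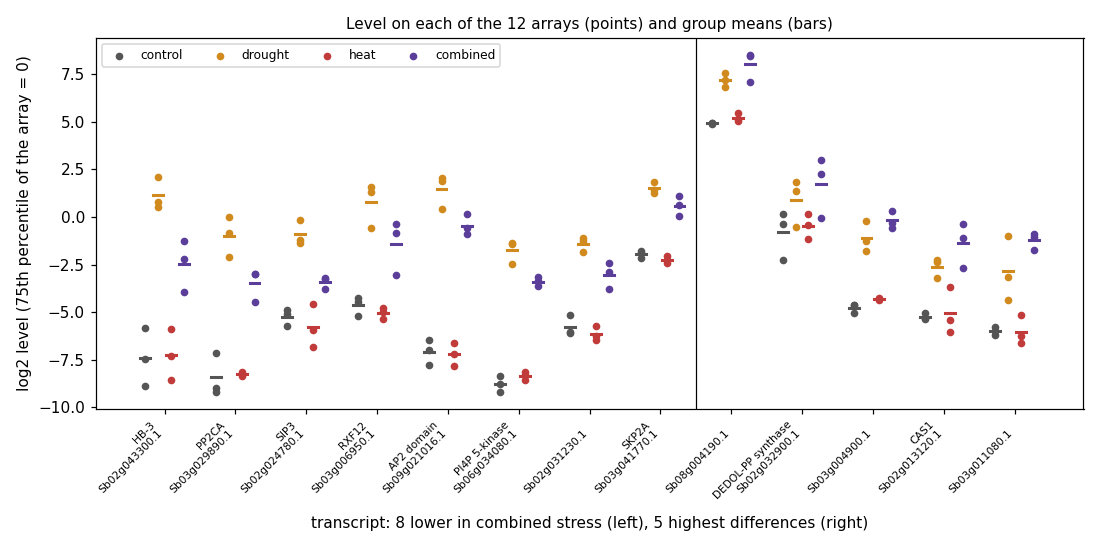
Log2 level on each array (points, 3 per group) and group mean (bars) of the 8 members called lower in combined stress than in drought, left of the line, and of the 5 members with the highest differences, right of it. In each of the 8 the mean of combined stress lies between that of drought and those of control and heat.

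Without a cut on p, 51 members had a lower mean in combined stress than in drought and 29 a higher one, with a median log2 difference of -0.38 over the members and -0.04 over all transcripts. Within a slide the members' median was -0.15 on slide 1, -0.33 on slide 2 and -0.57 on slide 3, and 45, 53 and 55 of 80 were lower there. The differences of 55 members were within 1 on the log2 scale, 23 were lower by more than that and 2, Sb03g011080.1 and CAS1, were higher. The median size of the difference, whatever its sign, was 0.64 over the members and 0.59 over all transcripts. No share over all transcripts was taken for the counts in this paragraph, so they only describe the members. In the main fit, which does not take the slide into account, the standard error of the difference had a median of 0.63 over the members. This was above the 0.32 of all transcripts. For most members a 2-fold difference, 1 on this scale, was thus under 2 standard errors in that fit. The SD of the difference between slides had a median of 0.49 over the members.

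The positive end was less well marked. Sb03g011080.1 had levels of -3.16, -4.36 and -0.98 in drought and -1.06, -1.71 and -0.88 in combined stress, a difference of 1.62 (SE 0.69, limma adjusted p = 0.102). The unknown protein Sb03g004900.1 differed by 0.92 (SE 0.37, limma adjusted p = 0.082), and Sb08g004190.1 by 0.82 (SE 0.35, limma adjusted p = 0.105), which became -0.37 under quantile normalization. The dehydrodolichyl diphosphate synthase Sb02g032900.1 differed by 0.83 (SE 0.88, limma adjusted p = 0.511). With CAS1 these were the 5 most positive.

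A pair of fits that take the layout of the slides into account changed the counts. With the slide as a block, 16 members (20.0%) were called lower and 1 higher, against 19.4% and 19.5% of all transcripts. The 16 held the 8 together with ATECP63, the serpin, the oligopeptide transporter, BETA-TIP and 4 members not placed in a role (Sb02g004630.1, Sb01g036205.1, Sb04g020540.1 and Sb08g006650.1), and the 1 higher was the senescence-associated protein, with a difference of 0.65 (adjusted p = 0.0373 with the block in limma). Combined stress arrays lay at positions 1, 1 and 2 of their slides and drought arrays at positions 3, 4 and 3, with no position in common. With the position as a factor, no member was called in either direction, against 0.324% of all transcripts lower and 1.74% higher, the differences of the 8 ranged from -3.15 for HB-3 to -0.63 for SKP2A, and the median over the members became 0.22. Treatment and position can thus be told apart only through the control and heat arrays. Without replicate 1, SIP3 was the 1 member called lower, at -2.75 (limma adjusted p = 0.0393), against 1.38% of all transcripts lower and 3.34% higher. Without replicate 2 the members called were 9 lower (11.2%) and 2 higher, against 7.62% and 9.82% of all. Without replicate 3 they were 7 lower (8.75%) and 2 higher, against 15.9% and 15.7%. With the 6 drought and combined stress arrays alone, 7 members were called lower and none higher, against 6.24% and 8.69%. The departure from additivity, which is the difference of combined stress from heat minus the difference of drought from control, was called for no member and for 0.0% of all transcripts in either direction, and at an unadjusted p under 0.05 for 7 members (8.75%) below 0 and none above, against 5.12% and 5.66% of all transcripts. Its median was -0.36 over the members and 0.07 over all transcripts. With normexp these medians were -1.23 and -0.20. At an unadjusted p under 0.05, 21 members (26.25%) were then below 0 and 0 above, against 5.81% and 2.22% of all transcripts. None of the members was called. The rule bounded heat, so this quantity is not independent of the difference of combined stress from drought.

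**Figure D3:**
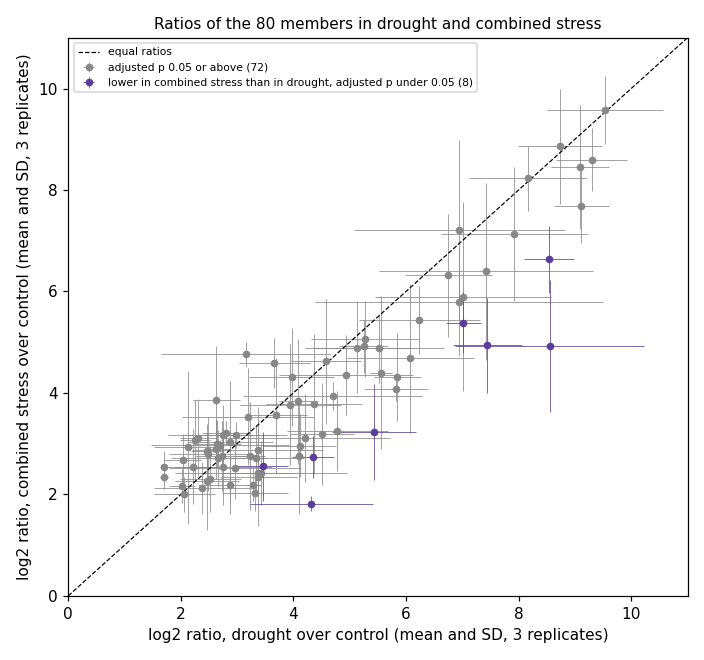
Mean log2 ratio to control in combined stress against that in drought for the 80 members, with bars for the SD of 3 replicates and a dashed line where the ratios are equal. Most points lie along or below the line, and the 8 called lower in combined stress (purple) are spread from a drought ratio of 3.46 to 8.55.

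Heat alone was the treatment in which the members were chosen not to move, and the evidence for this differed between them. For 49 members the transcript was detected on all 6 control and heat arrays, for 23 only some were, and for 8 none was. The last set held PP2CA (Sb03g029890.1), XERO1, the transketolase, the pyrophosphate-dependent phosphofructokinase, the phosphatidylinositol-4-phosphate 5-kinase, the second transcript of the Tim17/Tim22/Tim23 family gene, Sb06g033420.1 and Sb03g041320.1. In that set the heat ratio compares signals of which none was detected, and only a limit on the level in heat is known. The mean ratio was above 0 in 42 members and below 0 in 38. A mean within the band did not require each replicate to be: in 28 members, 15 of them measured on all 6 arrays, at least 1 replicate was past 1 in either direction. None of the 57 annotated heat shock proteins was a member. limma called 54 of the 57 higher in heat, 55 in the combination and 9 in drought. The rule left out transcripts with a mean heat ratio above its band, so the absence of heat shock proteins largely follows from it. No member was found among 42 transcripts annotated for other hormones, of which 11 were called higher and 2 lower in drought, 19 and 12 in heat and 24 and 14 when both were combined, or among 6 for leaf photosynthesis, of which 1 was called higher in drought, 3 in heat, and 3 higher and 2 lower in the combination. With 80 members among the 2965 identified transcripts, lists of 42 and 6 would hold few or none by their size alone.

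**Figure D4:**
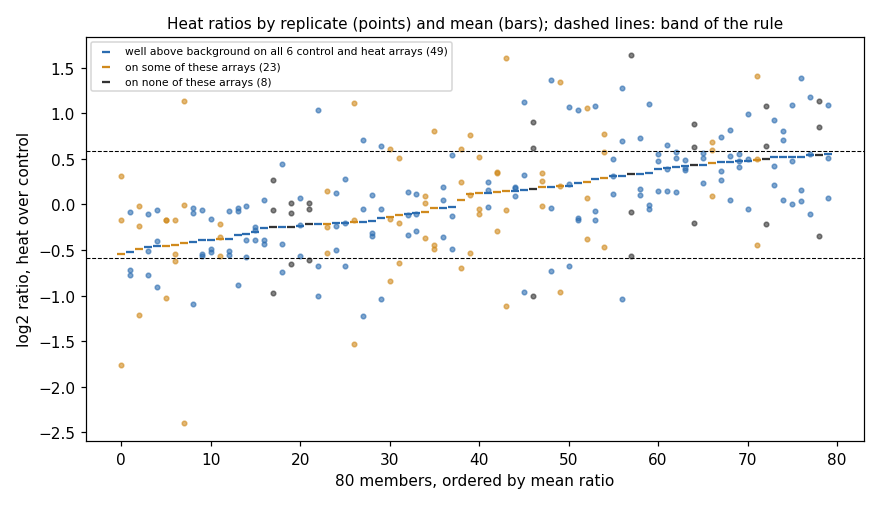
Log2 ratio of heat to control in each of the 3 replicates (points) and the mean (bars) for the 80 members, ordered by mean. Dashed lines mark the band of 1.5-fold either way, and colours mark on how many of the 6 control and heat arrays a member was detected (49 on all, 23 on some, 8 on none).

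Replicates differed in the size of the response, and in the same way for most members. Replicate 2 had the lowest level of the 3 drought arrays in 78 of 80 members and of the 3 combined stress arrays in 75, and replicate 3 had the highest in 75 and 63. Among the 971 transcripts called higher in drought with a value on every array, a set that includes called members, replicate 2 was lowest in 92.5%. Replicate 3 was highest in 94.4%. The members thus had the order of replicates found in most transcripts called higher in drought. The median ratio of the members in drought was 3.59, 3.20 and 4.47 in replicates 1 to 3, and in combined stress 3.52, 2.59 and 3.98. The SD between replicates had a median of 0.99 in drought and 0.94 in combined stress over the members, and of 0.46 in control and 0.46 in heat. The lowest ratio of a member was that of replicate 2 in 58 of 80 members in drought and 60 in combined stress, and the rule applied without replicate 2 passed 210 probes.

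At the limits of the rule, in the deposited values, ADH1 was just inside the drought limit at a lowest ratio of 1.591 and a transferase family protein (Sb01g008360.1) just outside it at 1.57. In combined stress SIP3 was just inside at 1.65 and AtHSD1 (Sb06g013990.1), a hydroxysteroid dehydrogenase, just outside at 1.577. The heat band ended above with ATECP63 at 0.57 inside and Sb03g012500.2 at 0.59 outside, and below with SIP3 at -0.53 inside and the unknown protein Sb05g025210.1 at -0.65 outside. Leaving aside the 3 transcripts excluded by name, 376 probes met the drought and combined stress limits with signal, of which 283 were stopped by a heat mean above the band and 13 by one below it.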

How the data were processed

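Agilent 1-colour arrays of 60-base probes designed on sorghum coding sequences were extracted by the authors with Feature Extraction and normalized in GeneSpring GX. The scanner files hold the deposited processed signal, an intensity per spot after background subtraction, with flags for spots well above background. The deposited series table holds normalized log2 values, whose mean ratios of members differed by at most 0.00877 from those of the processed signals. The table chose the members.

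All other values came from log2 of the processed signal minus the 75th percentile of each array over non-control spots, with outlier-flagged spots left out and spots of a probe averaged. The 22546 transcripts tested passed a filter on detection. limma 3.58.1 (R 4.3.3) was fitted to all 12 arrays with 4 group means, p-values were adjusted by Benjamini-Hochberg over all transcripts tested, and calls were made at 0.05. Tables were built in python 3.11.15 with scipy 1.17.1, pandas 2.3.3 and numpy 2.4.6. The limma step was tested on simulated data. Alternatives were the slide as a block, the deposited table, normexp with an offset of 50 (on the median signal, as a mean signal was not used here), quantile normalization, other filters and each replicate left out. The position on the slide as a factor and the fit of the 6 drought and combined stress arrays alone were added after the data were seen.

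Transcript identifiers and annotations came from the study's supplementary lists, whose 3996 rows were each joined to 1 probe through their fold changes to within 2e-05 on the log2 scale and reached 2965 transcripts, 2576 with an annotation. These fold changes served only for the join. Arrays have no sequencing depth, and their number limits the precision. The members, the lists and the roles were chosen with earlier results of these data known. Members were named when an annotation fell in 1 of the keyword lists (ABA, LEA proteins and dehydrins, seed and oil body proteins, transcription factors, osmolytes and sugars, other hormones, transport, wax and lipids), among the 10 highest drought ratios, among the 5 most negative or positive differences of combined stress from drought, or next to a limit of the rule. Members named beyond these, in the roles, among the calls and among the transcripts of 1 gene, were chosen after their values were seen.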

Additional observations from a re-analysis of the deposited data

How the results depend on the processing

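The rule passed 181 probes with a limit of 1 on the log2 scale and 53 with 2, 39 with a heat band of 0.3 and 122 with 1, 49 with detection on all 12 arrays, and 74 to 210 with a replicate left out. With normexp and quantile normalization it passed 61, of which 32 were among the 80. Members called lower in combined stress than in drought numbered 8, or 16 with the replicate block, 11 with quantile normalization, 6 with normexp and 0 with the position factor. They were 2 among transcripts detected on all 12 arrays, which tests fewer members, and 1 to 9 with a replicate left out. Members called higher numbered 0, or 1 with the replicate block and 0 to 2 with a replicate left out. Over all transcripts, 3360 were called lower, or 4376 with the replicate block, 3812 with quantile normalization, 1617 with normexp and 73 with the position factor. They were 1406 with the 6 arrays alone and 312 to 3583 with a replicate left out. The 3340 called higher became 4401 with the replicate block, 2971 with quantile normalization, 2592 with normexp and 392 with the position factor. They became 5026 with no filter, 1959 with the 6 arrays alone and 754 to 3530 with a replicate left out. A departure from additivity was called for 3 transcripts with the replicate block and 3 with quantile normalization. Members called higher in drought than in control were 74, or 59 with normexp, 47 with the position factor and 13 to 79 with a replicate left out. Among transcripts detected on all arrays they were 44 of the 48 members tested. In combined stress they were 80, or 74 with normexp, 67 with the position factor and 51 to 80 with a replicate left out. With detection on all arrays, all 48 members tested were called. Over all transcripts, 973 were called higher in drought, or 1754 with the replicate block, 321 with the position factor and 66 to 1515 with a replicate left out. With normexp, 3 members were called higher in heat. The median difference of combined stress from drought over the members was 0.22 with the position factor and -0.43 to -0.24 with a replicate left out. The cause of these changes was not tested.

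Each of the 80 members was refitted under every setting that tested it. The difference of combined stress from drought changed sign with the position factor in 25 of them, to 1.01 for Sb03g001130.1, 0.63 for Sb06g004280.1, 0.20 for Sb01g037560.1, 0.32 for Sb01g037560.2, 0.70 for Sb03g028870.1, 0.17 for Sb04g023920.1, 0.37 for Sb06g033420.1, 0.19 for Sb07g003720.1, 0.41 for Sb03g041320.1, 0.23 for Sb09g001860.1, 0.75 for Sb10g008820.1, 0.22 for Sb02g020400.1, 0.19 for Sb09g029080.1, 0.50 for Sb01g011900.1, -0.36 for Sb01g019850.1, 0.31 for Sb03g045520.1, 0.016 for Sb01g028760.2, 1.30 for Sb08g018710.1, 0.18 for Sb01g019590.1, -0.098 for Sb02g022090.1, 0.22 for Sb04g006075.1, 0.11 for Sb03g007320.2, 0.27 for Sb02g009540.1, 0.29 for Sb02g001940.1 and 0.45 for Sb09g028900.1. It changed sign with quantile normalization to -0.53 for Sb09g027110.2, -0.097 for Sb03g034280.1, -0.22 for Sb04g031810.1, -0.49 for Sb02g022090.1, -0.078 for Sb10g029560.1, -1.18 for Sb03g037370.1, -0.68 for Sb03g003550.1, -0.37 for Sb08g004190.1, -0.35 for Sb08g004190.2, 0.062 for Sb09g028900.1 and -0.17 for Sb02g011210.1, and with normexp to -0.0071 for Sb03g037370.1 and 0.046 for Sb09g028900.1. With a replicate left out it ran from -0.12 to 0.35 for Sb09g027110.2, -0.12 to 0.37 for Sb03g034280.1, -0.27 to 0.34 for Sb04g031810.1, -0.083 to 0.47 for Sb10g003700.1, -0.72 to 0.063 for Sb06g033420.1, -0.39 to 0.80 for Sb09g017950.1, -0.68 to 0.21 for Sb01g033820.1, -0.40 to 0.20 for Sb01g028760.2, -0.20 to 0.99 for Sb01g035730.1, -0.12 to 0.80 for Sb02g022090.1, -0.14 to 0.34 for Sb03g045515.1, -0.053 to 0.14 for Sb03g037370.1, -0.096 to 0.92 for Sb01g031140.1, -0.053 to 0.22 for Sb03g003550.1, -0.025 to 0.45 for Sb01g044540.1 and -0.16 to 0.048 for Sb09g028900.1. None of these was among the 8 called.

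The correlation of deviations from the group means was above 0.1 in 17 of 18 pairs of arrays with the same replicate number, and ranged from 0.04 to 0.62 over 19102 transcripts. Thus 1 pair fell short of the 0.1 asked of every pair, and the fit without the block, which had been set as the main one, was kept. Arrays of 1 number shared a slide, and the counts with the slide as a block are given beside those they change. Shares of promoters with a motif, planned as a description, were not run. For members that were not well above background in control, signal over background limits the ratio to a bound.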
